A study of Glycine max with 6 samples.

Results

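EREB and EREBP1 are soybean genes of the ethylene response, and both lie in the AP2/ERF family of plant transcription factors. Every cDNA clone with 1 gene symbol, that symbol being EREB or EREBP1, was taken. There were 5 such clones among the 18361 on the array. EREB was read by 3 of them, Gm-r1021-173, Gm-r1021-2719 and Gm-r1070-8458. EREBP1 was read by Gm-r1021-1568 and Gm-r1083-419. Roots of the near-isogenic lines IsoClark (Fe-inefficient) and Clark (Fe-efficient) were compared, both grown in Fe sufficient hydroponics, on 6 arrays. IsoClark carries Fe inefficiency from a donor line in a background restored by backcrossing to Clark. Roots of more than 1 plant were pooled for each of the 3 replicates, without mixing hydroponic units, and the pool was hybridized as a dye-swap pair: a forward array with IsoClark in Cy3 and Clark in Cy5, and a swapped array with the dyes exchanged. No iron-limited sample was analysed here, so the comparison is of the lines alone.

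Ethylene is a gaseous hormone made from S-adenosylmethionine by way of ACC. In Arabidopsis its receptors and the EIN3 group of transcription factors lead to the induction of ERF genes. ERF proteins, first named ethylene-responsive element binding proteins (EREBP), bind the GCC box in the promoters of defence and stress genes through the AP2 domain. DREB proteins carry the same type of domain and are known for binding the dehydration-responsive element. In roots of Fe-efficient dicots, ethylene is known to take part in the response to low iron. The gene annotation lists EREB with the synonyms GmERF054 and GmERF058 and 2 transcripts, and EREBP1 with the synonym GmERF076 and 1 transcript. A spotted cDNA can bind transcripts of close family members too, and the part of such binding was not tested.

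Neither gene passed the test for a difference between the lines. The line ratio, IsoClark over Clark on the log2 scale throughout, was 0.05 ± 0.13 (SD, n = 3) for EREB over its 3 tested clones and 0.01 ± 0.06 (SD, n = 3) for EREBP1 over its 1 tested clone. The 95% limma interval ran from 0.841-fold to 1.27-fold for EREB and from 0.823-fold to 1.23-fold for EREBP1. A clone was tested when it lay above background in either line on at least 3 arrays and had a usable spot in every replicate. That held for 4 of the 5 clones. Of these 4, 0 passed an adjusted p of 0.05 in limma, against 0% of the 13430 clones tested on the array, and 0 had an unadjusted p under 0.05, against 743 (5.53%). A mean ratio of at least 2-fold was reached by 0 of the 4 clones, against 0.0298% of all. The interval lay within 2-fold in both directions for 4 of 4 clones, against 97.9% of all, which is close to the share on the array at large. These intervals are moderated by the spread of all clones. The SDs of Gm-r1021-173 (0.56) and Gm-r1070-8458 (0.43) were higher than those of 93.5% and 85.3% of the clones tested. For both, the moderated interval was narrower than their own SD alone would give. For 1 of the 4, Gm-r1070-8458, no array had both lines above background, and its interval bounds the ratio of near-background signal only. Replicates were separate tissue pools, and in bulk root tissue fewer expressing cells and less RNA per cell cannot be told apart.

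The array data carry limits that touch these clones. Of the cDNA spots on an array, 18.9% to 44.2% were flagged as poor by the image program, the highest share being on the swapped array of replicate 2. Spot brightness on that array correlated with the other arrays at a mean r of 0.334, against 0.593 to 0.706 for the others. The protocol text of the same array names the dyes the other way round from its label, and the label was followed. Line ratios of the arrays of a swap pair correlated over all clones at r = 0.108, -0.062 and -0.079 in replicates 1, 2 and 3. On each array 85.1% to 98.7% of the cDNA spots lay above background. Of the 6 clones of root marker genes, 5 in IsoClark and 6 in Clark were above background on all 6 arrays. The same held in each line for 10 of 11 clones of shoot markers and 12 of 22 clones of seed markers, so detection alone does not tell root from other tissues here. Line ratios of the tested marker clones ran from -0.34 to -0.002 for root (median -0.29, 4 clones), from -0.20 to 0.24 for shoot (median 0.05, 9 clones) and from -0.25 to 0.80 for seed (median 0.03, 13 clones), and 0 of them passed an adjusted p of 0.05 in limma. The part of tissue makeup in the EREB and EREBP1 ratios was not tested.

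Gm-r1021-173, from a root clone set, gave the widest spread of the EREB clones. Its line ratio in replicate 1 was -0.73 on the forward array and -0.17 on the swapped one. In replicate 2 it was 0.13 on the forward array, and in replicate 3 it was 0.67 on the swapped array. The spots on the other two arrays were flagged as poor. The clone was thus lower in IsoClark on both arrays of replicate 1 and higher on the single usable array of each of the other replicates. The replicate 3 spot was uneven, with a mean signal of 3558 and a median of 1647 in IsoClark, and 3223 and 2749 in Clark. The mean was 0.12 ± 0.56 (SD, n = 3; limma adjusted p = 0.921), with a 95% interval from 0.768-fold to 1.53-fold. The SD was higher than that of 93.5% of the clones tested. Without replicate 1 the mean was 0.40, with an interval from -0.03 to 0.83 and a limma adjusted p of 0.657. With no spot flags used the mean was -0.015 ± 0.42, and from signal medians it was -0.035.

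Signal for Gm-r1021-173 lay above background in both lines on all 6 arrays. Its normalized log2 intensity ran from 10.19 to 13.81 in IsoClark (median 11.73) and from 10.92 to 13.80 in Clark (median 11.67), so the lines overlapped almost fully. Intensities here and for the other clones include poor spots. The highest pair of values came from the swapped array of replicate 2, where the spot was flagged as poor. There the mean signals were 21692 in IsoClark and 21704 in Clark, beside background SDs of 5761 and 4808. That spot ranked at the 84.9th percentile of brightness on its array, against the 18.4th to 58.5th on the other arrays.

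Gm-r1021-2719, the other EREB clone from that root set, ranged from the 15.5th to the 91.3rd percentile of brightness and changed sign between replicates. Replicate 1 gave line ratios of 0.54 on the forward and 0.17 on the swapped array. Replicate 2 gave -0.31 and 0.03 in the same order. In replicate 3 the forward array gave -0.12 and the other spot was poor. IsoClark was thus higher on both arrays of replicate 1 and close to Clark or lower elsewhere. The mean was 0.03 ± 0.28 (SD, n = 3; limma adjusted p = 0.979), and the interval ran from 0.801-fold to 1.3-fold.

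The clone lay above background in both lines on all 6 arrays, with log2 intensities of 10.33 to 14.48 in IsoClark (median 12.85) and 10.30 to 13.94 in Clark (median 12.86). The largest ratio came from the brightest spot, at the 91.3rd percentile of its array. The signal of that spot was uneven, with a mean of 27987 and a median of 15203 in IsoClark and 21426 and 9460 in Clark.

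Gm-r1070-8458, the EREB clone from the set made of seed coat, seedling, cotyledon, flower and pod libraries, was dim in these roots. It lay above background on 2 of 6 arrays in IsoClark and on 2 of 6 in Clark, on 4 different arrays, so no array had both lines above background. On each of these 4 arrays the line above background was the one in Cy5, so line and dye cannot be told apart in its detection. Its signal was 1.5 to 5.82 times the local background, and its spot never passed the 15.8th percentile of brightness. The ratios of this clone therefore rest largely on spots near background.

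Line ratios of Gm-r1070-8458 were -0.46 and 0.07 in replicate 1, -0.08 and 1.07 in replicate 2, and -0.27 and -0.30 in replicate 3, forward array first. The value of 1.07 was the only usable ratio of the 5 clones that reached 2-fold, and Clark was not above background on that array. The other 5 arrays lay between -0.46 and 0.07. The mean was 0.01 ± 0.43 (SD, n = 3; limma adjusted p = 0.998), with an interval from 0.749-fold to 1.34-fold. Without the swapped array of replicate 2 the mean was -0.19, with an interval from -0.50 to 0.13 and a limma adjusted p of 0.862. This clone was the only one of the 5 with a usable spot on every array, where usable means not flagged as poor. Its spots on both arrays of replicates 2 and 3, that of 1.07 included, carried another flag of the image program (flag 2). So did the swapped replicate 2 spot of Gm-r1021-2719. Such spots were kept.

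**Figure D1:**
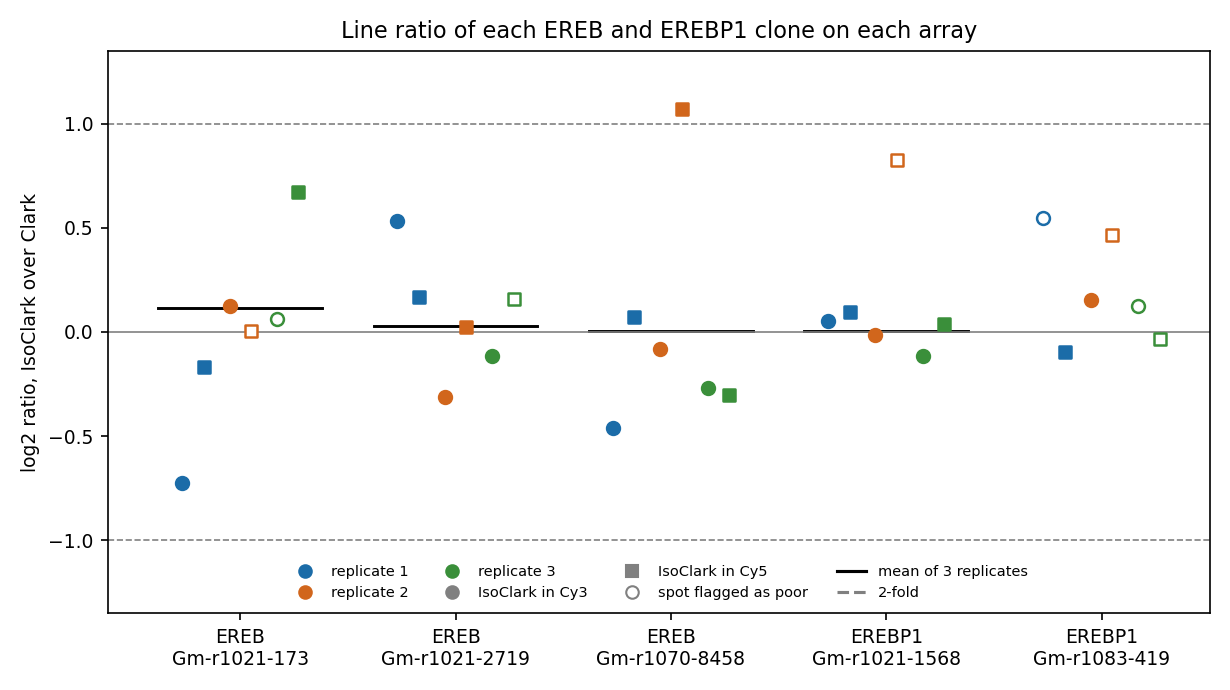
Line ratio (log2, IsoClark over Clark) of the 5 clones on each of the 6 arrays. Colours mark replicates, circles and squares mark the dye that IsoClark carried, open symbols are spots flagged as poor (their values come from the normalization that used no flags), black bars are means over 3 replicates and dashed lines mark 2-fold. The square of Gm-r1070-8458 in replicate 2, at 1.07, is the only symbol past a dashed line.

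EREBP1 was measured evenly by Gm-r1021-1568, from the root set that also holds a pair of the EREB clones. Replicate 1 gave line ratios of 0.05 on the forward and 0.10 on the swapped array. Replicate 2 gave -0.02 on its usable array. Replicate 3 gave -0.12 and 0.04 in that order. No usable array was further than 0.12 from equality, and the signs were mixed. The mean was 0.01 ± 0.06 (SD, n = 3; limma adjusted p = 0.996), with an interval from 0.821-fold to 1.23-fold. Only 5.6% of the tested clones had a smaller SD, and the moderated interval, which borrows from the spread of all clones, was wider than that SD alone would give.

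Signal for Gm-r1021-1568 was above background in both lines on all 6 arrays, 3.31 to 29.5 times the local background. Its log2 intensity ran from 10.88 to 13.20 in IsoClark (median 12.19) and from 10.82 to 13.16 in Clark (median 12.05). Levels thus varied far more between arrays than between the lines of 1 array. The even ratios depended on a flag. On the swapped array of replicate 2 the spot was flagged as poor, and its ratio was 0.83 with no flags used. With it, replicate 2 became 0.40 and the mean 0.13 ± 0.23.

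Gm-r1083-419, the other EREBP1 clone, was not tested because both of its replicate 3 spots were flagged as poor. It had 2 usable arrays, with line ratios of -0.10 (replicate 1, swapped) and 0.15 (replicate 2, forward). These values lie on either side of 0. The clone lay above background in both lines on all 6 arrays, with log2 intensities of 11.70 to 13.00 in IsoClark and 11.18 to 12.85 in Clark. With no flags used its replicate values were 0.23, 0.31 and 0.05, a mean of 0.19 ± 0.13 (n = 3; limma adjusted p = 0.766), with an interval from -0.09 to 0.47.

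**Figure D2:**
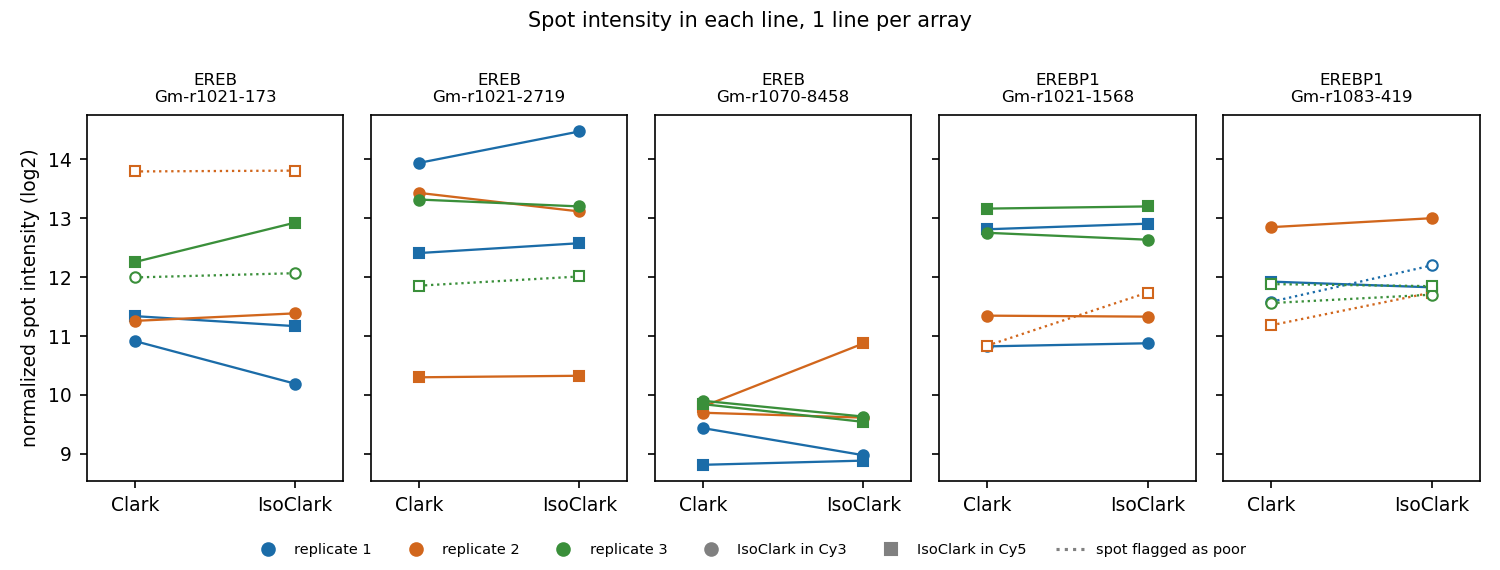
Normalized log2 spot intensity in Clark and IsoClark for each clone, with 1 connecting line per array. Colours mark replicates, circles and squares the dye that IsoClark carried, and dotted lines with open symbols are spots flagged as poor. The heights differ far more between arrays than between the ends of most lines, and all values of Gm-r1070-8458 lie between 8.81 and 10.88.

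Across the 5 clones, 22 of 30 array ratios were usable. Of these 11 were above 0 and 11 were below. A swap pair had both arrays usable in 8 of 15 cases, and the arrays of the pair had the same sign in 4 of the 8. Where only 1 array of a pair was usable, a dye effect cannot cancel. Mean ratios by orientation differed most in Gm-r1021-173 (-0.30 on forward arrays, 0.25 on swapped arrays) and Gm-r1070-8458 (-0.27 and 0.28). In a fit of the single arrays with a dye term, their line ratios were -0.024 and 0.005, against 0.117 and 0.005 as reported. The dye effect itself was not tested in these clones. One sign in all 3 replicates was found for 0 of the 4 tested clones, against 29.1% of all clones.

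The EREB clones were compared among themselves, since all 3 carry 1 gene symbol. Their replicate values did not move together. In replicate 1 Gm-r1021-173 gave -0.45 and Gm-r1021-2719 gave 0.35, and in replicate 3 they gave 0.67 and -0.12. The replicate 3 value came from the swapped array alone for Gm-r1021-173 and from the forward array alone for Gm-r1021-2719. Clone and dye orientation therefore cannot be told apart in that contrast. With no flags used, the replicate 3 values were 0.36 and 0.02. Gm-r1070-8458 gave its highest value, 0.49, in replicate 2, where the others gave 0.13 and -0.14. The SD between the 3 clones was 0.408, 0.320 and 0.510 in replicates 1, 2 and 3, a mean of 0.413. Over the 81 genes with at least 3 tested clones the median of this mean was 0.287, and 7 genes exceeded EREB. The gene mean of EREB averaged these clones, and its replicate values were -0.10, 0.16 and 0.09 (limma adjusted p = 0.947). A mean over 3 clones varies less than single clones do, so the closeness of these values does not show that the clones were alike. Without replicate 2 the gene mean was -0.004, and without the swapped array of that replicate it was -0.033.

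The difference between the genes, EREB minus EREBP1, was -0.17, 0.18 and 0.13 in replicates 1, 2 and 3. Its mean was 0.05 ± 0.19 (SD, n = 3), with an interval from -0.42 to 0.51. An exact two-sided sign-flip test gave p = 0.75, where 3 replicates cannot go below 0.25. The interval leaves room for the line ratio of EREB to be from 0.746 to 1.43 times that of EREBP1, and the values do not show that the genes behave alike.

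The DREB genes, the other genes that a search by AP2/ERF symbols found on the array, had values of the same small size. Family members under other symbols were not looked for. The DREB genes were read by 8 clones of 3 genes, 5 of them tested. The ratios of those 5 ran from -0.01 to 0.11 with a median of 0.02, and 4 were above 0. With EREB and EREBP1 added, 9 such clones were tested, 8 of them above 0, and 0 passed (limma adjusted p from 0.89 to 0.998). Over all tested clones 50.7% were above 0 and the median was 0.003. DREB1-like was read by 4 clones, 2 of them tested. Gm-r1070-2762 had replicate values of 0.23, -0.24 and 0.34 and a mean of 0.11 ± 0.31 (n = 3), and Gm-r1083-492 had 0.21, 0.47 and -0.47 and a mean of 0.07 ± 0.48 (n = 3). The untested clones had values in replicates 1 and 3 (Gm-r1083-504, -0.015 and -0.32) or in replicates 2 and 3 (Gm-r1083-607, -0.65 and 0.26). DREB1 had -0.15, 0.05 and 0.16, and its mean was 0.02 ± 0.16. Each of these tested clones had both signs among its replicates, as the EREB and EREBP1 clones did.

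Other genes tied by symbol to ethylene or to kinase cascades were looked up in the same fit, with the DREB genes included in the list. Of the 18 tested clones of 8 genes, 12 were above 0 (66.7%, against 50.7% of all tested clones), 6 were below and 0 passed. An unadjusted limma p under 0.05 was found for 1 of the 18, a share close to the 5.53% of all tested clones. That clone was Gm-r1070-4299 for the gene listed as ACS, with replicate values of 0.45, 0.54 and 0.19 and a mean of 0.39 ± 0.18 (n = 3). Its interval ran from 1.05-fold to 1.63-fold and its limma adjusted p was 0.796. ACS is the usual symbol of the enzyme that makes ACC, but the annotation does not spell out what it stands for here. By orientation its ratio was 0.56 on forward arrays and -0.05 on swapped arrays. ACS1 gave 0.73, 0.23 and -0.06, a mean of 0.30 ± 0.40 that was -0.03 with no flags used. Its 3 usable arrays were all forward ones, so line and dye cannot be told apart in that mean of 0.30. With no flags used its ratio was 0.29 on forward and -0.34 on swapped arrays.

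SAMDC, S-adenosylmethionine decarboxylase, draws on the same precursor as ethylene for polyamine synthesis. Its 6 tested clones ran from -0.29 to 0.30, with 2 above 0 and 4 below. The 5 tested clones of the kinase genes MAPK2 and MAPKK2 ran from -0.29 to 0.07. The lowest of them, Gm-r1083-3652 for MAPK2, was below 0 in all 3 replicates (-0.34, -0.51 and -0.02), while Gm-r1070-4977 for the same gene gave 0.01, 0.07 and 0.04. One sign in all 3 replicates was found for 29.1% of all tested clones. With no flags used the replicate 1 value of Gm-r1083-3652 was 0.001. Clones of 1 gene thus lay on both sides of 0 here too.

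**Figure D3:**
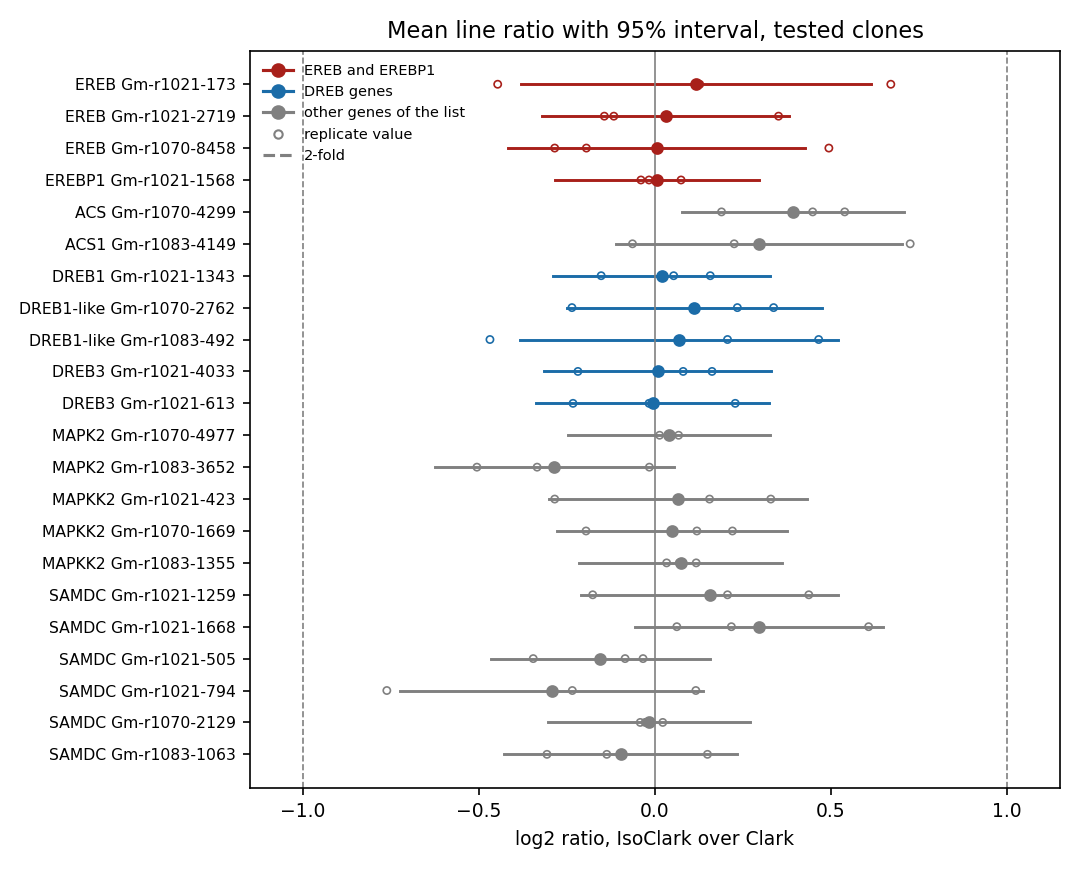
Mean line ratio (log2, IsoClark over Clark; filled points) with 95% limma intervals (bars) and the 3 replicate values (open points) for the tested clones of EREB and EREBP1, the DREB genes and the other genes of the list. Dashed lines mark 2-fold. Every bar lies within 2-fold, and the bars of the 4 EREB and EREBP1 clones all cross 0.

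Genes whose line ratios ran most like those of the members were sought among 524 named genes over the 6 arrays, with no flags used. This is a description, since arrays of a replicate share RNA and all genes share the arrays. For EREB they were LOC547474 (Pearson's r = 0.957), GSTU9, named for a glutathione S-transferase, (0.942) and LOC547632 (0.933). For EREBP1 they were LOC547736 (0.952), LOC732570 (0.927) and LOC100101914 (0.922). EREB and EREBP1 correlated with each other at 0.516, and 17.7% of the genes ran closer to EREB and 16.6% closer to EREBP1 than that. The 6 arrays include the swapped array of replicate 2, on which 44.2% of the cDNA spots were flagged as poor. With no flags used, that array gave Gm-r1070-8458 (EREB) a ratio of 1.094 and Gm-r1021-1568 (EREBP1) a ratio of 0.827. How far these correlations rest on that array was not tested.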

How the data were processed

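The authors quantified the slides with ImaGene 6.1.0, per the file headers, and deposited the linear spot intensity of each channel with a quality flag. A value table of log2 ratios for these arrays was deposited as well. Its background correction and centring are not given in the sources used (column medians -0.279 to 0.113), and its replicate 3 column with IsoClark in Cy3 ran against the label (r = 0.802 with Cy5 over Cy3). It served as an alternative and, through 1 fixed row shift per clone set found from the values, for gene names. At those shifts the mean absolute r was 0.85 to 0.877, against at most 0.228 at the next best. Of 526 named genes 522 matched the annotation of assembly Glycine_max_v4.0.

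Background was corrected with normexp (offset 50) on signal mean and background median, and arrays were normalized by global loess in limma 3.58.1 (R 4.3.3), with weight 0 for blank, empty and poor spots. Only flag 3 of the image program was treated as poor, and spots with other flags were kept. Swap pairs were averaged to 1 replicate value, poor spots left out. Means over the 3 replicates were set against 0 by lmFit and eBayes across all tested clones, with Benjamini-Hochberg adjustment at 0.05. Above background means a signal mean over the background median plus 2 background SD. The log2 intensities given for each line were further quantile-normalized between arrays on spot brightness (Aquantile in limma). Brightness percentiles were taken without that step. Gene ratios are means over tested clones, in a fit of their own. The text names all EREB and EREBP1 clones, clones of symbols tied to ethylene, and the 3 most alike genes. Members and lists were chosen with earlier results of these data known. The number of arrays limits the precision. The fit was tested on simulated data. The alternatives tried were other background corrections, spot statistics, normalizations, flags and filters, the authors' ratios, dye and day terms, turned arrays and replicates left out.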

Additional observations from a re-analysis of the deposited data

Results flagged for a closer look

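In 3 sets of array values, 1 array lay far from the others, among 19 sets searched, where chance gives about 1 in 20 for each set. For EREB, the swapped array of replicate 2 (IsoClark in Cy5) gave Gm-r1070-8458 a line ratio of 1.07, against -0.46 to 0.07 on the other 5 arrays. With no flags used it gave 1.094, against -0.475 to 0.067. For EREBP1, the same array gave Gm-r1021-1568 a ratio of 0.827 with no flags used, against -0.123 to 0.094 elsewhere. These sets overlap, since a clone's values enter with and without flags. On that array 44.2% of the cDNA spots were flagged as poor, and its part in these values was not tested.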

How the results depend on the processing

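No alternative gave EREB or EREBP1 a limma adjusted p under 0.05 (0.884 to 1 and 0.801 to 1). The sign of means this near 0 did change. EREB, 0.05 as reported, was -0.098 in the authors' ratios, -0.071 with the swapped replicate 2 array turned to the dyes of its protocol text and -0.033 with that array left out, an alternative chosen after seeing the data. EREBP1, 0.006 as reported, was -0.002 without background correction and -0.02 from signal medians, and it was highest with no flags (0.163, over both clones) and in the authors' ratios (0.13). With the forward replicate 3 array turned, EREB was 0.106 and EREBP1 0.044. The difference between them was -0.141 with no flags, -0.228 in the authors' ratios, -0.009 with a term for quantification day, -0.077 with the replicate 2 array turned and -0.038 with it left out. Leaving out 1 replicate gave -0.004 to 0.124 for EREB, -0.029 to 0.028 for EREBP1 and -0.021 to 0.153 for the difference, the lowest EREB value and the lowest difference without replicate 2 and the lowest EREBP1 value without replicate 1.

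Over all clones, the day term gave 5 clones past the adjusted p of 0.05 and every other alternative gave 0, with 262 to 1090 clones at an unadjusted p under 0.05. The 4 clones at least 2-fold apart became 0 without background correction, 9 with signal medians, 1 with print-tip loess, 1 with no flags, 103 in the authors' ratios, 2 with a dye term, 15 with the day term, 2 with the replicate 2 array turned, and 14 to 34 without 1 replicate. The causes were not tested. The lines were already paired within each array and the arrays within each swap pair, so no further block was fitted. For the dim Gm-r1070-8458 the ratio was -0.35 (interval -0.69 to -0.02, limma adjusted p = 0.982) with the replicate 2 array turned. In the authors' ratios it was -0.29, and its limma interval, from -1.07 to 0.50, passed 2-fold.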
